A study of Mus musculus with 19 samples.

Results

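The expression of 10 Notch pathway genes was examined in 19 mouse RNA-seq libraries of mammary tumors and mammary glands. The genes are the receptors *Notch1*, *Notch2*, *Notch3* and *Notch4*, the ligands *Jag1*, *Jag2*, *Dll1* and *Dll4*, and the targets *Hes1* and *Hey1*. They were chosen by name, as the rows of a table of normalized counts whose Ensembl identifiers map to these symbols, and all 10 were found among the 46078 genes of the table. All 10 passed the filter on low values in every comparison.

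The libraries fall into 5 groups of female mice, whose ages the sample records do not give. The paper gives a mixed FVB/C57/BALB/c background for the MMTV-neu cohorts and states no strain for the wild-type mice. TN (n = 4) are mammary adenocarcinomas of mice labelled MMTV-neu;Fsp-Cre, and TNP (n = 4) are tumors of mice labelled MMTV-neu;p53wm-R172H/+;Fsp-Cre. MGN (n = 4) and MGNP (n = 4) are glands without malignant lesions from tumor-bearing mice of the corresponding *N* and *NP* genotypes, and MGWT (n = 3) are glands of age-matched wild-type mice. The MMTV promoter drives neu (ErbB2) in the mammary epithelium, so that every tumor and every MGN and MGNP gland carried this oncogene. Fsp-Cre expresses Cre in fibroblasts, where it converts the conditional allele into one that makes mutant p53. MGNP and TNP all carried the same 3 elements. MGN replicate 1 was labelled MMTV-neu;Fsp-Cre, as were the TN tumors, whereas MGN replicates 2, 3 and 4 were labelled MMTV-neu;p53wm-R172H/+ and had no Cre, so TN and MGN differ in these elements as well as in tissue. The library names of TNP replicates 1 and 2 share an animal number, and p-values that count them as 2 samples may then be too small.

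Notch receptors are single-pass proteins that are activated by ligands of the Jagged and Delta-like families on a neighboring cell. Binding leads to cleavage by ADAM proteases and then by γ-secretase, and the released intracellular domain enters the nucleus, where it joins RBPJ and Mastermind-like proteins at target genes such as those of the Hes and Hey repressors. In the mammary gland the pathway is known for its part in the choice between luminal and basal fate, and in vessels *Dll4*, *Notch4* and *Notch3* are known from endothelial and mural cells.

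Reads recovered from the table numbered 20899152 to 27262440 per library in MGN, MGNP, TN and TNP and 54677315 to 62645459 in MGWT. The lowest value of any of the 10 genes, *Jag2* in TN replicate 2, rested on 62 reads. The summed level of 8 basal epithelial markers was 65025 to 79352 normalized counts in MGWT, 10782 to 26444 in MGN and MGNP and 1611 to 5748 in the tumors. The sum of 8 luminal markers was 77434 to 92548 in MGWT, 8851 to 27252 in MGN and MGNP and 96496 to 180740 in the tumors, and that of 10 endothelial markers was 19101 to 39252 in all glands and 4128 to 7256 in the tumors. *Krt19*, 1 of the 8 luminal markers, went against the luminal sum, at 33.7 to 215 in TN and 72.4 to 1512 in TNP. It was 2833 to 3515 in MGN, 1528 to 5624 in MGNP and 17055 to 21111 in MGWT. The sum of 8 white adipocyte markers was 137960 to 390560 in MGN and MGNP, against 1968 to 2875 in MGWT and 642 to 7001 in the tumors. It was thus lower in every tumor than in every MGN or MGNP gland, and its part in the tumor to gland differences below was not tested. MGWT glands stood apart by 10 immediate-early genes (347060 to 452820, against 3089.6 to 10775 in every other group). In MGNP, 11 skeletal muscle markers summed to 402650, 2888500, 12279 and 1598300 in replicates 1 to 4, against 347 to 17360 in MGN. No marker was at 0 in every library of a group. In these bulk samples, fewer cells of a type and less RNA per cell cannot be told apart. In MGWT the genotype cannot be told apart from any difference in strain, cell makeup, depth or handling.

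Sequence upstream of the transcription start is shown for *Dll1*, the ligand gene that rose in the tumors, for *Jag1*, a ligand gene that fell, and for *Notch3*, the receptor gene that rose. The stretches are from the RefSeq promoter table (GRCm38.p6), end before the annotated gene and read 5′ to 3′ on the gene's strand. Capitals mark the N-box of Hes repressors (CACNAG, on either strand).
*Dll1*, chr17:15376933-15377182, minus strand: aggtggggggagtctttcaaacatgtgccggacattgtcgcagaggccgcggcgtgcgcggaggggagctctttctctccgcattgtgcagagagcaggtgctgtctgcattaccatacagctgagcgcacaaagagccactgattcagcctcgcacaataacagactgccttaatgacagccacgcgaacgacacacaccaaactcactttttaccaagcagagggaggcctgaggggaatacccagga
*Jag1*, chr2:137116645-137116770, minus strand: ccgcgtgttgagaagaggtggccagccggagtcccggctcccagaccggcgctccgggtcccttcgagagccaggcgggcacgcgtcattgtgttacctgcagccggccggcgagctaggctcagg
*Notch3*, chr17:32166891-32167140, minus strand: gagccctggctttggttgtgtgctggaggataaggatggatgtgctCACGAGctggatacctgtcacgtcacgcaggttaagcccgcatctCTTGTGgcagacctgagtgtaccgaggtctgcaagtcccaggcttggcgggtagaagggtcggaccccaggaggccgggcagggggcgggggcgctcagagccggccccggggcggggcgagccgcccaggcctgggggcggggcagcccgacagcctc
The *Notch3* stretch holds 2 N-boxes, and those of *Dll1* and *Jag1* hold 0. The full *Dll1* window, of which the last bases are not printed, holds 1. The table has 9 windows of 300 bases for 8 of the 10 genes, and *Hes1* and *Hey1* have no entry in it. Of these windows, 5 of 9, that of *Dll1* included, held an N-box, against 42.48% of all 32851 windows. The core of the RBPJ site (TGGGAA) was found in 0 of 9, against 25.56%, and the E-box CACGTG in 0 of 9, against 7.15%, both read on both strands. A match describes the letters only.

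Tumors were compared with glands of the same genotype group to ask which genes differ in the step from gland to tumor. *Hey1*, *Dll1*, *Hes1* and *Notch3* were higher and *Jag1* and *Jag2* lower in TN than in MGN, and the same 6 genes were called in the same directions in TNP against MGNP, where *Notch2* and *Notch4* were lower as well. Each difference is a log2 fold change of log2(normalized count + 1), given with its standard error, and was called at a Benjamini-Hochberg adjusted p-value under 0.05 in limma. In TN against MGN, 4 of 10 genes were called higher and 2 lower, beside 23.5% and 27.8% of the 17950 genes tested. In TNP against MGNP, 4 of 10 were higher and 4 lower, beside 26.2% and 29.3% of 17880. The median log2 fold change of the 10 genes was -0.13 in TN against MGN and -0.24 in TNP against MGNP, and that of all genes was -0.05 and -0.07. Without MGNP replicates 2 and 4, the libraries with the most muscle transcripts, 4 were called higher and 4 lower in TNP against MGNP, beside 25.1% and 28.5% of all genes.

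Among the ligands, *Dll1* (ENSMUSG00000014773, chr17:15367354-15376872), which encodes a Delta-like ligand, was the 1 gene that rose. Its normalized counts in MGN replicates 1 to 4 were 759, 713, 618 and 601, and in MGNP they were 866, 651, 881 and 426. In TN they were 8916, 5188, 3154 and 6470.3, and in TNP they were 2441, 5475, 7874 and 9844. Every tumor was above every gland of MGN and MGNP. *Dll1* was 8.27-fold higher in TN than in MGN (log2 fold change 3.05 ± 0.29, limma adjusted p = 0.00013) and 8.35-fold higher in TNP than in MGNP (3.06 ± 0.43, limma adjusted p = 0.00049). The MGWT glands had 2703, 2819 and 2466, above all MGN and MGNP glands and within the range of the TNP tumors. In the order of group means, MGN (673 ± 75.6, SD, n = 4) and MGNP (706 ± 214, SD, n = 4) were not separated, MGWT followed (2662 ± 180.0, SD, n = 3), and TN (5932 ± 2413, SD, n = 4) and TNP (6408 ± 3192, SD, n = 4) were highest and overlapped each other. Beside the sum of the luminal markers, which was also higher in the tumors, *Dll1* amounted to 2.27% to 5.31% in MGN, 2.44% to 4.81% in MGNP, 2.87% to 8.93% in TN and 2.41% to 8.26% in TNP. These ranges overlapped. This ratio and the others to a marker sum were chosen after the values were seen.

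*Jag1* (ENSMUSG00000027276, chr2:137081456-137116644), which encodes a Jagged ligand, fell in the tumors. Its normalized counts were 2356, 3539, 2628 and 3056 in MGN and 2212, 2452, 1364 and 2714 in MGNP. They were 309, 1256, 835 and 537 in TN and 399, 390.4, 516 and 529 in TNP. All 8 tumors were below all 8 glands. The fold was 4.42 lower in TN than in MGN (log2 fold change -2.14 ± 0.39, limma adjusted p = 0.0021) and 4.65 lower in TNP than in MGNP (-2.22 ± 0.23, limma adjusted p = 0.00011). MGWT glands were highest, at 3494, 3973 and 4103, with MGN replicate 2 inside their range. Beside the sum of the luminal markers *Jag1* was 9.64% to 26.4% in MGN and 5.18% to 30.7% in MGNP, against 0.309% to 0.865% in TN and 0.283% to 0.444% in TNP. Beside the sum of the basal markers it was 9.94% to 24.7% in MGN, 5.79% to 25.2% in MGNP, 11.2% to 78% in TN and 12.3% to 15.1% in TNP. The tumors thus lay below the glands beside the luminal sum and overlapped them beside the basal sum. The markers of the basal sum fell unevenly, as given below for *Jag2*.

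*Jag2* (ENSMUSG00000002799, chr12:112907819-112929776), the other Jagged ligand gene, had the largest fall of the 10 genes. MGN replicates 1 to 4 had 374, 1171, 970.1 and 607 normalized counts, and MGNP had 919, 1136, 821 and 895. TN had 78.4, 65.3, 157 and 75.9, and TNP had 103, 92.7, 92.2 and 119.9. No tumor reached the level of any gland. *Jag2* was 7.99-fold lower in TN than in MGN (log2 fold change -3.00 ± 0.41, limma adjusted p = 0.00059) and 9.15-fold lower in TNP than in MGNP (-3.19 ± 0.17, limma adjusted p = 8e-06). In MGWT it was 3252, 2519.6 and 3450.5, above every other library. The sum of the basal markers moved in the same order across the groups, and *Jag2* amounted to 3.87% to 4.35% of it in MGWT, 2.79% to 5.74% in MGN, 3.48% to 8.3% in MGNP, 2.72% to 4.3% in TN and 2.19% to 3.9% in TNP. Beside this sum, then, the tumors overlapped the glands. The markers in it fell unevenly, as given above, and the part of basal cells in the fall of *Jag2* was not tested.

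*Dll4* (ENSMUSG00000027314, chr2:119325784-119335962), a ligand gene of endothelial cells, was low in all groups, with 279 to 648 normalized counts in MGN, 301 to 641 in MGNP, 260.2 to 349 in TN, 199.8 to 325 in TNP and 349 to 655 in MGWT. The tumors overlapped the MGN and MGNP glands, and the differences of -0.35 ± 0.28 in TN against MGN (limma adjusted p = 0.31) and -0.56 ± 0.27 in TNP against MGNP (limma adjusted p = 0.11) were not called. Their 95% confidence intervals reached from -0.98 to 0.28 and from -1.18 to 0.05. Beside the sum of the endothelial markers, which was lower in every tumor than in every gland, *Dll4* was 1.25% to 1.83% in MGN and MGNP and 3.97% to 8.11% in the tumors.

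**Figure D1:**
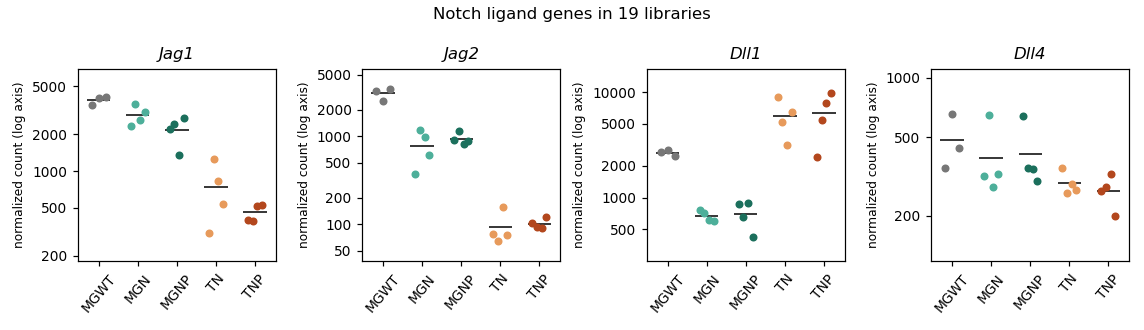
Normalized counts of the 4 Notch ligand genes (log axis) in each library by group; points are libraries and horizontal lines are group means. *Dll1* is above all MGN and MGNP glands in all 8 tumors, *Jag1* and *Jag2* are below them, and *Dll4* overlaps between the tumors and these glands.

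Divided by the length of the merged exons, levels can be set side by side within a library. *Jag1* had the highest level per kb of the 4 ligands in 4 of 4 MGN and 4 of 4 MGNP glands, whereas *Dll1* was highest in all 8 tumors. In MGWT, *Jag1* was highest in 2 of 3 libraries and *Dll1* in 1. Of the summed level per kb of the 4 ligands, *Dll1* made up a median of 17.55% in MGN, 20.93% in MGNP and 35.51% in MGWT, and 85.32% in TN and 90.2% in TNP. *Jag1* made up 55.92%, 46.89% and 36.23% in the same glands, and 9.78% in TN and 4.46% in TNP. *Jag2* was 12.75% in MGN and 17.38% in MGNP, and 0.627% in TN and 0.804% in TNP.

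**Figure D2:**
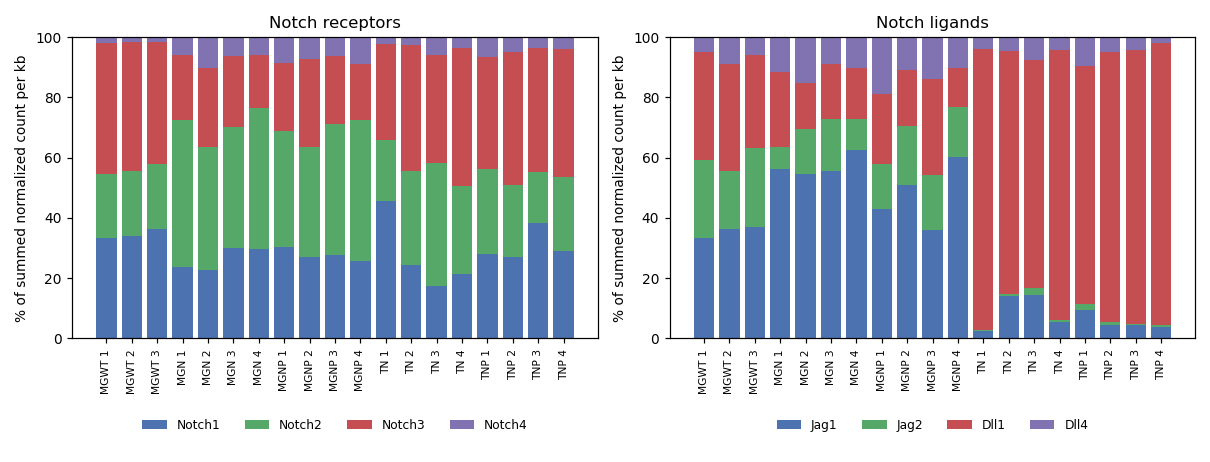
Share of each gene in the summed normalized count per kb of the 4 receptors (left) and the 4 ligands (right), in percent, with 1 bar per library. *Dll1* takes 75.66% to 93.59% of the ligand sum in the tumors, and *Notch2* is the largest receptor share in every MGN and MGNP gland.

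Among the receptors, *Notch3* (ENSMUSG00000038146, chr17:32120820-32166852), a receptor of vascular mural cells that is also known in luminal progenitors, rose in the tumors. Normalized counts were 2173, 4290.3, 2562 and 1938 in MGN and 2838, 3003, 2826 and 1494 in MGNP. They were 3872, 5169, 5007 and 6354 in TN and 3208, 4540.4, 5115 and 4355 in TNP. TN overlapped MGN through MGN replicate 2, and every TNP tumor was above every MGNP gland. The rise was 1.93-fold in TN against MGN (log2 fold change 0.95 ± 0.26, limma adjusted p = 0.015) and 1.73-fold in TNP against MGNP (0.79 ± 0.25, limma adjusted p = 0.024). The call in TNP against MGNP was lost without TNP replicate 2, 3 or 4 (limma adjusted p = 0.06, 0.063 and 0.055) and when the muscle score entered as a covariate, where the log2 fold change was 0.83 (limma adjusted p = 0.2). With this covariate 11.6% of all genes were called higher and 15.1% lower. MGWT glands, at 10974, 12572 and 11859, were above every other library. The sum of 6 mural cell markers was 8009.7 to 20044 in MGN and MGNP and 5638.5 to 10671 in the tumors, so that *Notch3* amounted to 9.2% to 35.3% of it in those glands and 37.6% to 79.9% in the tumors. In MGNP this sum was highest in the muscle-rich replicates 2 and 4 (17192 and 16246). Its markers went both ways. Medians in MGN, MGNP, TN and TNP were 2987, 1927, 1241 and 985 for *Pdgfrb* and 333, 306, 503 and 554 for *Kcnj8*. The part of mural cells in the *Notch3* difference was not tested.

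*Notch1* (ENSMUSG00000026923, chr2:26457903-26516663), a receptor with broad expression in epithelium, blood cells and vessels, was not called between tumor and gland. It had 4219.8, 6446, 5729 and 5755 normalized counts in MGN and 6743, 4913, 6130.5 and 3627 in MGNP. In TN it had 9779, 5274, 4319 and 5203, and in TNP 4270.5, 4912, 8384 and 5224. The groups overlapped, with the highest values in TN replicate 1 and TNP replicate 3. The log2 fold changes were 0.09 (95% confidence interval -0.49 to 0.68, limma adjusted p = 0.78) in TN against MGN and 0.08 (-0.51 to 0.67, limma adjusted p = 0.81) in TNP against MGNP. MGWT glands had 14853, 17696 and 18606, above all other libraries.

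*Notch2* (ENSMUSG00000027878, chr3:98013527-98150361), a receptor gene expressed in many tissues, was lower in TNP than in MGNP. Its normalized counts were 6558, 4964, 7347 and 5046 in MGNP and 3257, 3294, 2796 and 3374 in TNP, with no overlap. The fall was 1.86-fold (log2 fold change -0.89 ± 0.16, limma adjusted p = 0.0016). In TN, 3249, 5139, 7601 and 5359 overlapped the 6631, 8785, 5773 and 6887 of MGN, and the log2 fold change of -0.44 ± 0.25 was not called (limma adjusted p = 0.17). Without TN replicate 3, the highest of the TN tumors, it was called at -0.63 (limma adjusted p = 0.048). TN replicate 3 also had a sum of 7 fibroblast markers of 269320, against 29049 to 42761 in the other TN tumors. Its sum of 7 macrophage markers was 29350, against 9590 to 14659, and the part of these cells was not tested. The difference between the TN and TNP effects was not called, at -0.45 ± 0.31 for the interaction (limma adjusted p = 0.77). MGWT glands had 7143, 8429.5 and 8400.5, within the range of MGN.

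*Notch4* (ENSMUSG00000015468, chr17:34564268-34588503), a receptor of endothelial cells, had 1096, 754, 786 and 705 normalized counts in MGNP and 562, 498, 427 and 399.5 in TNP. Every TNP tumor was below every MGNP gland. It was 1.76-fold lower in TNP (log2 fold change -0.81 ± 0.18, limma adjusted p = 0.0058). In MGN it had 610.1, 1625, 663 and 634, and in TN 287, 328, 846 and 489. These groups overlapped through TN replicate 3, and the log2 fold change of -0.85 ± 0.42 was not called (limma adjusted p = 0.12) except without TN replicate 3 (-1.16, limma adjusted p = 0.034) or in a single fit of all 5 groups (limma adjusted p = 0.032). Beside the endothelial marker sum, *Notch4* was 2.39% to 4.14% in MGN and 3.08% to 4.12% in MGNP, against 6.69% to 11.7% in TN and 6.73% to 13.3% in TNP, so this share was higher in every tumor than in every gland of MGN and MGNP.

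Per kb of exon, the order of the receptors differed between tissues. *Notch2* had the highest level per kb in 4 of 4 MGN and 4 of 4 MGNP glands, at means of 651 ± 118 and 555 ± 108 normalized counts per kb (SD, n = 4 each). *Notch1* (389 ± 66.0 in MGN and 376 ± 96.9 in MGNP) and *Notch3* (339 ± 132 and 314 ± 86.8) came next and overlapped each other. In TNP, *Notch3* was highest in 4 of 4 tumors (532 ± 98.9), whereas in TN *Notch3* was highest in 2 tumors and *Notch1* and *Notch2* in 1 each. *Notch3* was also highest in 3 of 3 MGWT glands (1459 ± 99.0, SD, n = 3). *Notch4* was lowest in all groups, with means of 58.2 to 109.6 per kb.

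**Figure D3:**
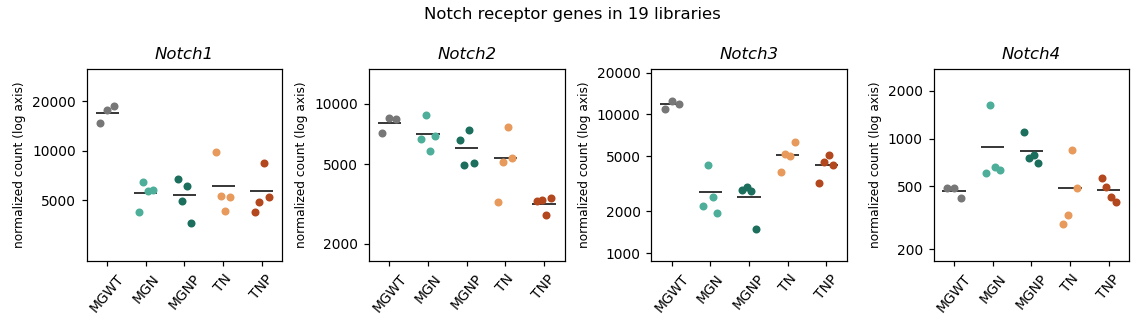
Normalized counts of the 4 Notch receptor genes (log axis) in each library by group; points are libraries and horizontal lines are group means. *Notch1* and *Notch3* are highest in the 3 MGWT glands, and *Notch2* is at 2796 to 3374 in all 4 TNP tumors.

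Both targets among the 10 genes rose in the tumors, whereas further genes listed as targets went both ways, as given below. *Hey1* (ENSMUSG00000040289, chr3:8663359-8667256), a transcriptional repressor gene, had normalized counts of 894, 284, 276 and 251.3 in MGN and 361, 374, 279 and 316 in MGNP. It had 9906, 4689.7, 6924 and 5454 in TN and 8988, 10697, 9180.4 and 6566 in TNP. The lowest tumor was above the highest gland, MGN replicate 1. *Hey1* was 17.7-fold higher in TN than in MGN (log2 fold change 4.15 ± 0.42, limma adjusted p = 0.00016) and 26.3-fold higher in TNP than in MGNP (4.72 ± 0.17, limma adjusted p = 3.4e-06). These were the largest log2 fold changes among the 10 genes in both comparisons. The MGWT glands had 857, 2919 and 1966, with replicate 1 below MGN replicate 1. Beside the luminal marker sum *Hey1* was 1.01% to 3.81% in MGN, 1.06% to 3.57% in MGNP, 2.59% to 9.92% in TN and 5.51% to 8.88% in TNP, and the shares of TNP and MGNP did not overlap.

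*Hes1* (ENSMUSG00000022528, chr16:30064384-30067796), a repressor gene and a direct target of the receptors, had 367, 365, 515 and 358 normalized counts in MGN and 588, 549.5, 511 and 502 in MGNP. It had 1779, 1151, 1176 and 1501 in TN and 978, 1287, 1404 and 1694 in TNP. Every tumor was above every gland of MGN and MGNP. The rise was 3.47-fold in TN (log2 fold change 1.80 ± 0.20, limma adjusted p = 0.00022) and 2.45-fold in TNP (1.29 ± 0.18, limma adjusted p = 0.00043). MGWT glands were above all tumors, at 1989.9, 2358 and 2412. Beside the luminal marker sum, *Hes1* was 1.56% to 2.72% in MGN and 1.94% to 5.68% in MGNP, against 0.637% to 1.78% in TN and 0.932% to 1.42% in TNP. The shares of TNP lay below those of MGNP, and the part of the luminal cells in the rise of *Hes1* was not tested.

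**Figure D4:**
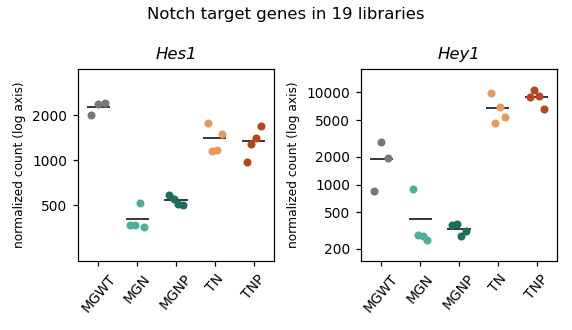
Normalized counts of *Hes1* and *Hey1* (log axis) in each library by group; points are libraries and horizontal lines are group means. Both genes are higher in all 8 tumors than in all MGN and MGNP glands, and *Hes1* is highest in MGWT.

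In TN against MGN, *Hey1*, *Dll1* and *Hes1* did not overlap in the higher direction and *Jag1* and *Jag2* in the lower, beside 22.7% and 26.4% of all genes tested. In TNP against MGNP, the same 3 genes and *Notch3* did not overlap in the higher direction and *Jag1*, *Jag2*, *Notch2* and *Notch4* in the lower, beside 25.2% and 27.4%. The calls of *Hey1*, *Dll1*, *Hes1*, *Jag1* and *Jag2* held under all 18 alternatives tried for TN against MGN and all 21 tried for TNP against MGNP, which included leaving out each sample.

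Glands of tumor-bearing mice were compared with wild-type glands to ask how a gland that carries neu but no malignant lesion differs from a normal gland. In MGN, 7 of 10 genes were lower than in MGWT and 0 higher, beside 29.2% lower and 30.0% higher of the 19017 genes tested. In MGNP, the same 7 genes were lower and *Notch4* was higher, beside 24.0% lower and 22.4% higher of 19065. The median log2 fold change of the 10 genes was -1.81 in MGN and -1.70 in MGNP, against 0.02 for all genes in both. DESeq2 also called *Notch4* higher in MGN, beside 31.7% of all genes, and edgeR called 0 of the 10 genes higher, beside 29.8%. At an unadjusted p under 0.05 in limma, which 63.6% of all genes reached in either direction, *Notch4* was the 1 gene higher in MGN. The comparisons share the 3 MGWT glands, so they are not independent. They also share the MGN and MGNP glands with the tumor comparisons. Markers of several cell types and the immediate-early genes differed between MGWT and the other glands as given above, and their part in these differences was not tested.

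The targets fell furthest in MGN. *Hes1* was 5.65-fold lower in MGN (log2 fold change -2.50 ± 0.16, limma adjusted p = 1e-05) and 4.18-fold lower in MGNP (-2.06 ± 0.13, limma adjusted p = 9.6e-05), with no overlap. *Hey1* was 4.66-fold lower in MGN (-2.22 ± 0.53, limma adjusted p = 0.0075), where MGN replicate 1 lay above MGWT replicate 1, and 5.13-fold lower in MGNP (-2.36 ± 0.39, limma adjusted p = 0.0028) with no overlap. Of the receptors, *Notch3* was lower by a log2 fold change of -2.18 ± 0.25 in MGN (limma adjusted p = 0.00019) and -2.27 ± 0.25 in MGNP (limma adjusted p = 0.00065). *Notch1* was lower by -1.63 ± 0.16 (limma adjusted p = 9.4e-05) and -1.70 ± 0.23 (limma adjusted p = 0.0013). Neither receptor overlapped between these glands and MGWT. *Notch2* was not called in either, at -0.20 ± 0.16 in MGN (limma adjusted p = 0.3) and -0.43 ± 0.18 in MGNP (limma adjusted p = 0.079).

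*Notch4* went the other way, with MGWT glands at 491, 491 and 425 normalized counts, below every gland of MGN and MGNP. It was 1.76-fold higher in MGNP (log2 fold change 0.81 ± 0.19, limma adjusted p = 0.01) and 0.78 ± 0.33 in MGN, which was not called (limma adjusted p = 0.074). Without MGN replicate 2, the gland with the highest *Notch4*, the MGN difference was smaller and was called (0.44, limma adjusted p = 0.019). The endothelial marker sum of MGWT, 23861 to 30376, lay within the range of MGN and MGNP, but its markers did not move together. *Vwf*, the largest of these markers in MGWT, was higher there (11829 to 13002, against 3653 to 6604 in MGN and 3387 to 5685 in MGNP). *Kdr* was lower in MGWT (1346 to 2185, against 3648 to 6637 in MGN and 2734 to 9590 in MGNP). *Tek*, *Cldn5* and *Esam* were lower in MGWT than in every MGN gland and overlapped MGNP. The remaining markers overlapped both. The part of endothelial cells in the *Notch4* difference was not tested. Of the ligands, *Dll1* was lower by -1.99 ± 0.12 in MGN (limma adjusted p = 8.1e-06) and -1.97 ± 0.26 in MGNP (limma adjusted p = 0.0012), and *Jag2* by -2.09 ± 0.36 (limma adjusted p = 0.0015) and -1.70 ± 0.17 (limma adjusted p = 0.00043). *Jag1* was lower by -0.43 ± 0.15 in MGN (limma adjusted p = 0.039), a call that was lost under 10 of 17 alternatives, among them leaving out any single sample except MGN replicate 2. In MGNP it was lower by -0.86 ± 0.24 (limma adjusted p = 0.022), a call lost without any of the 3 MGWT glands. *Dll4* was not called, at -0.33 ± 0.33 in MGN (limma adjusted p = 0.41) and -0.26 ± 0.32 in MGNP (limma adjusted p = 0.54). With the muscle score as a covariate, 3 genes (*Jag1*, *Jag2* and *Hes1*) were called lower in MGNP and 0 higher, beside 5.41% and 3.30% of all genes. Among the lost calls, with a limma adjusted p from 0.11 to 0.32, *Hey1* was at -2.92, *Notch3* at -1.76 and *Notch4* at 0.95, and *Notch1* and *Dll1* at -0.95 and -0.93. Without MGNP replicates 2 and 4, 7 genes were lower and 1 higher, beside 25.5% and 26.0%.

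Tumors were also set beside wild-type glands, the other epithelium-rich samples. In TN, 2 genes were higher and 6 lower than in MGWT, beside 25.7% and 30.6% of 18236 genes. In TNP, 2 were higher and 7 lower, beside 32.7% and 37.0% of 18233. The 2 higher genes were *Hey1* and *Dll1* in both. *Hey1* was 3.80-fold higher in TN (log2 fold change 1.93 ± 0.43, limma adjusted p = 0.0061) and 5.13-fold higher in TNP (2.36 ± 0.37, limma adjusted p = 0.00053), and no tumor overlapped MGWT. *Dll1* was 2.08-fold higher in TN (1.06 ± 0.32, limma adjusted p = 0.023) and 2.13-fold higher in TNP (1.09 ± 0.41, limma adjusted p = 0.04), where TNP replicate 1 lay below the MGWT glands. The *Dll1* call was lost without any MGWT gland or TN replicate 4 in TN, and without any MGWT gland or TNP replicate 2, 3 or 4 in TNP.

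The lowest genes beside MGWT were the Jagged ligands. *Jag2* was 34.1-fold lower in TN (log2 fold change -5.09 ± 0.32, limma adjusted p = 3.1e-05) and 29.8-fold lower in TNP (-4.90 ± 0.17, limma adjusted p = 3.7e-07), and *Jag1* 5.95-fold (-2.57 ± 0.43, limma adjusted p = 0.0017) and 8.46-fold lower (-3.08 ± 0.15, limma adjusted p = 1.6e-06). *Notch1*, *Notch3* and *Hes1* were lower in both, by 2.91-fold, 2.35-fold and 1.63-fold in TN and by 3.08-fold, 2.78-fold and 1.71-fold in TNP (limma adjusted p between 6.8e-05 and 0.015). The *Hes1* call in TN was lost under 4 of 17 alternatives, which were a 2-fold threshold, the replicate block (limma adjusted p = 0.06) and leaving out MGWT replicate 2 or 3 (limma adjusted p = 0.057 and 0.061). *Hes1* thus lay above the MGN and MGNP glands and below MGWT in the tumors. *Notch2* was lower in TNP (-1.33 ± 0.11, limma adjusted p = 2e-05) and not called in TN (-0.64 ± 0.27, limma adjusted p = 0.073). *Dll4* was lower by -0.68 ± 0.25 in TN (limma adjusted p = 0.049), a call lost under 11 of 17 alternatives, and by -0.82 ± 0.25 in TNP (limma adjusted p = 0.017). *Notch4* was at -0.07 ± 0.36 in TN (limma adjusted p = 0.87) and -0.0016 ± 0.16 in TNP (95% confidence interval -0.36 to 0.36, limma adjusted p = 0.99).

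The *NP* and *N* groups were compared to ask whether mutant p53 in fibroblasts goes with a difference in these genes. None of the 10 genes was called in MGNP against MGN by limma, edgeR or DESeq2, beside 0%, 0% and 3.86% of the 18563 genes tested. At an unadjusted p under 0.05, which 10.5% of all genes reached in limma, 1 gene of the 10 was found, *Hes1*, with a log2 fold change of 0.44 ± 0.16 (limma adjusted p = 0.38), and MGN replicate 3 overlapped the MGNP glands. None was called in TNP against TN by the same 3 tools, beside 0.0421%, 0% and 0.721% of 16638 genes. There, *Notch2* was the 1 gene of the 10 with an unadjusted p under 0.05, beside 7.27% of all genes in limma, at -0.69 ± 0.23 (limma adjusted p = 0.67), and TN replicate 1 overlapped the TNP tumors. Confidence intervals in TNP against TN were wide for *Dll1* (0.03, 95% confidence interval -0.999 to 1.07) and *Jag1* (-0.51, -1.39 to 0.37) and narrower for *Hes1* (-0.07, -0.54 to 0.41). *Hey1*, at 0.43, had an interval of -0.14 to 0.997.

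The interaction, which tests whether the tumor to gland difference differed between *NP* and *N*, was called for 0 of the 10 genes by limma, edgeR and DESeq2, beside 0%, 0% and 1.84% of 19367 genes. At an unadjusted p under 0.05 in limma it was 0 of 10, beside 7.93% of all genes. The largest interaction values were 0.57 for *Hey1* (95% confidence interval -0.45 to 1.60), -0.50 for *Hes1* (-1.07 to 0.06) and -0.45 for *Notch2* (-1.11 to 0.21). With 4 samples per group, differences of this size could not be told from the spread.

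**Figure D5:**
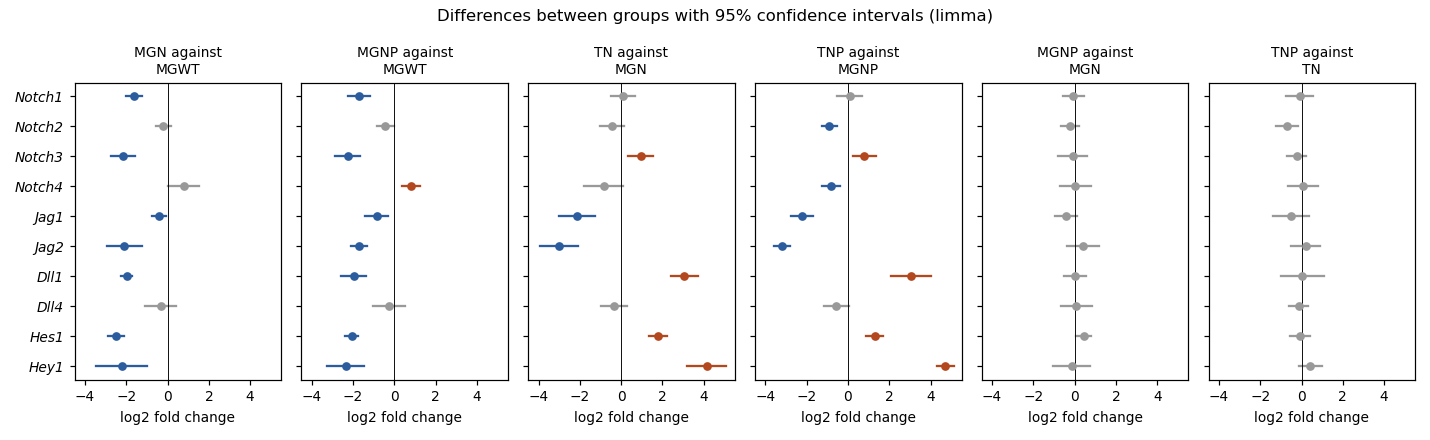
Log2 fold changes of the 10 genes (points) with 95% confidence intervals (lines) in 6 comparisons; red marks genes called higher, blue genes called lower and gray genes not called. The 4 genes higher in the tumors are *Notch3*, *Dll1*, *Hes1* and *Hey1* in both tumor to gland panels, and all points are gray in the 2 comparisons between genotypes.

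Of 41 further genes of the pathway, 38 passed the filter in every comparison, and *Dll3*, *Hes5* and *Hes7* did not. In TN against MGN, 8 were called higher and 8 lower, beside 23.5% and 27.8% of all genes. In TNP against MGNP, 14 were higher and 14 lower, beside 26.2% and 29.3%. Of the 38, 4 are listed as targets. In TN 1 of them was higher and 1 lower, and in TNP 2 were higher and 2 lower, beside the same shares. The higher gene in TN was *Hes6*, and its response to Notch was not tested. *Nrarp* was higher in TNP (0.90 ± 0.31, limma adjusted p = 0.035) and not called in TN (0.71 ± 0.57, limma adjusted p = 0.32). *Heyl* was lower in TN (-1.35 ± 0.40, limma adjusted p = 0.021) and TNP (-1.50 ± 0.33, limma adjusted p = 0.0047), and *Hey2* in TNP (-1.46 ± 0.47, limma adjusted p = 0.026). Of the 9 genes for cleavage of the receptor, 5 were higher and 1 lower in TN, beside 23.5% and 27.8% of all genes. In TNP 7 were higher and 1 lower, beside 26.2% and 29.3%. The lower gene was *Psen2*, a presenilin gene, in both, at -1.55 ± 0.18 in TN (limma adjusted p = 0.00026) and -0.86 ± 0.16 in TNP (limma adjusted p = 0.0022). *Psen2*, and *Nrarp*, *Heyl* and *Hey2* in these comparisons, were outside the rule for naming genes here and were chosen after their values were seen. Among the 4 highest log2 fold changes were *Snw1*, a nuclear cofactor of the Notch complex (1.02 ± 0.13 in TN and 1.20 ± 0.12 in TNP), and *Hes6*, a Hes family gene (1.10 ± 0.19 and 1.10 ± 0.21). *Aph1a*, a γ-secretase subunit gene (1.05 ± 0.15), and *Fbxw7*, which encodes the ubiquitin ligase that marks cleaved receptors (1.16 ± 0.21), completed the 4 in TN. *Ncstn*, also a γ-secretase subunit gene (1.17 ± 0.12), and *Furin*, a protease of receptor maturation (0.92 ± 0.14), completed them in TNP. Adjusted p-values of these genes in limma were between 8e-05 and 0.0026.

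The Fringe glycosyltransferase genes *Mfng* and *Lfng*, whose products modify the receptors, were among the 4 lowest in both. *Mfng* had 880.1 to 2143 normalized counts in MGN, 557 to 1317 in MGNP, 58.0 to 156.5 in TN and 74.9 to 115.6 in TNP, and 178 to 272 in MGWT. Its tumors did not overlap the glands, with log2 fold changes of -4.35 ± 0.39 in TN (limma adjusted p = 0.00011) and -3.35 ± 0.29 in TNP (limma adjusted p = 4.4e-05). *Lfng* fell by 2.64 on the log2 scale in TN (limma adjusted p = 0.0013) and by 1.95 in TNP (limma adjusted p = 0.0027). The Deltex ubiquitin ligase genes *Dtx1* (-3.76 ± 0.53, limma adjusted p = 0.00069) and *Dtx2* (-1.56 ± 0.24, limma adjusted p = 0.001) completed the 4 in TN. In TNP they were *Dtx1* (-3.38 ± 0.98, limma adjusted p = 0.017) and *Neurl1a*, a ubiquitin ligase gene that acts on ligands (-3.88 ± 1.03, limma adjusted p = 0.012). *Dtx1* ranged from 52.9 to 255 in MGN and from 17.1 to 479 in MGNP. In the tumors it was near the filter of 10 normalized counts, at 3.16 to 10.5 in TN and 6.73 to 15.6 in TNP. *Neurl1a* ranged from 50.9 to 1958 in MGNP and from 18.3 to 45.0 in TNP, and the muscle transcripts of MGNP varied as given above. Their part in this difference was not tested.

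Beside MGWT, 4 of the 38 genes were higher and 17 lower in MGN, beside 30.0% and 29.2% of all genes, and 2 were higher and 19 lower in MGNP, beside 22.4% and 24.0%. Among the lowest in both was *Maml3*, a Mastermind-like coactivator gene (-1.72 ± 0.26 in MGN and -1.73 ± 0.26 in MGNP). *Hey2*, a Hey family target (-1.84 ± 0.30), and *Furin* (-1.69 ± 0.12) were also among them in MGN, and *Maml2* (-1.68 ± 0.20) and the sheddase gene *Adam10* (-1.66 ± 0.17) in MGNP. *Mfng* was the highest in both, at 2.92 ± 0.32 in MGN and 2.12 ± 0.31 in MGNP, followed by *Snw1* (0.59 ± 0.12) in MGNP and by *Psen2* (0.60 ± 0.13), the sheddase gene *Adam17* (0.49 ± 0.10) and *Snw1* (0.44 ± 0.11) in MGN. Adjusted p-values of these genes in limma were at most 0.0074. In the tumors beside MGWT, 5 were higher and 19 lower in TN, beside 25.7% and 30.6% of all genes, and 6 higher and 21 lower in TNP, beside 32.7% and 37.0%. The 4 highest in both were *Snw1* (1.47 ± 0.14 in TN and 1.79 ± 0.10 in TNP), *Hes6*, *Adam17* and *Ncstn*, and among the lowest were *Dtx1* (-4.77 ± 0.42 and -4.38 ± 0.34) and *Hey2* in both, the corepressor gene *Spen* (-2.21 ± 0.16) in TN and the Numb family gene *Numbl* (-2.53 ± 0.16) in TNP. In MGNP against MGN and in TNP against TN, 0 of 38 were called by limma, with 7 and 3 at an unadjusted p under 0.05, beside 10.5% and 7.27% of all genes. DESeq2 called 2 and 0 of them, beside 3.86% and 0.721%, and edgeR 0 and 0. The interaction was called for 0 of 38 by limma and edgeR and for 1 by DESeq2, beside 1.84% of all genes, and 7 had an unadjusted p under 0.05 in limma, beside 7.93%.

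Within the groups, some of the 10 genes varied together across the 19 libraries. After subtraction of each group's mean of log2(normalized count + 1), Pearson's r was 0.748 between *Notch2* and *Notch4*, 0.707 between *Dll1* and *Hes1*, 0.673 between *Notch1* and *Dll1* and 0.645 between *Notch4* and *Jag2*, the highest of the 45 pairs. These are descriptions, since the values of a library share its depth, scaling and cell makeup. Measured in the same way over 14832 genes, the gene most like *Hey1* was *Lrrc26* (r = 0.853), followed by *Usp38* (0.850) and the milk protein gene *Lalba* (0.836). For *Dll1* they were *Kansl1* (0.907), *C77080* (0.850) and *Cyfip1* (0.825), and for *Hes1* *B4galnt2* (0.863), *Car8* (0.828) and *Mfsd6l* (0.800). *Jag1* was most like *Slc25a24* (0.916), *Dsel* (0.914) and *Ifi204* (0.889), *Jag2* like *P3h1* (0.866), *Nlrp5-ps* (0.828) and *Tgfb1i1* (0.823), and *Dll4* like *Man1c1* (0.837), *Sept4* (0.834) and *Npc1* (0.832). Among the receptors, *Notch1* was most like *A930004J17Rik* (0.924), *Srsf4* (0.901) and *Zbtb48* (0.868), and *Notch2* like *Mfhas1* (0.880), *Cfp* (0.879) and *Aoah* (0.876). *Notch3* was most like *Jup* (0.882), *Prss16* (0.872) and *Mex3d* (0.860), and *Notch4* like *Ankrd29* (0.875), *Pdia5* (0.861) and *Itga5* (0.859).

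The gene models of 7 of the 10 genes overlap a total of 10 other annotated genes, and whether the authors' counting used strand is not stated, so reads of an overlapping gene could not be told apart. The highest normalized count of any of these overlapping genes was 392.9, in *Gm42819*, which lies within *Notch2*.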

How the data were processed

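RNA-seq was measured in 19 libraries. Per the paper's methods, libraries were read as 75-bp pairs and aligned to GRCm38 with TopHat2 (2.1.1 in the processing notes) and Bowtie2. The library kit is an mRNA kit in the methods but a total RNA kit in the sample records, which bears on transcripts without a poly(A) tail. The tool for counting, its annotation and its use of strand are not given in the sources used here. The signal deposited by the authors is normalized counts, reads divided by 1 DESeq2 size factor per library, and the scaling is part of every value. Dividing by each library's step gave whole reads for 100% of the values (tolerance 0.05 reads), although the step of TN replicate 3 is too near 1 for this check to tell it from unscaled counts.

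Groups were taken from the sample records. Symbols and positions came from GENCODE vM21, and levels per kb used the length of the merged exons. Log2(normalized count + 1) was fitted with limma (3.58.1, R 4.3.3, trend), with only the compared groups in each fit, over genes with at least 10 normalized counts in as many samples as the smaller group. P-values were adjusted over all genes tested, and genes were called at an adjusted p under 0.05. The fold changes understate those of low genes. That replicates are separate animals is stated only in general terms, and p-values measure the spread between these samples. The 10 genes, the 41 further pathway genes and the marker lists were chosen with earlier results of these data known. All 10 genes are named. Of the further genes, up to 4 per direction with the largest fold change among the called are named, and for each of the 10 genes the 3 most alike by within-group correlation, among genes with a mean of at least 50. The single-gene result of 1 further pathway gene is not reported here. Alternatives were pseudocounts of 0.5 and 5, no filter, a mean filter of 50, TMM scaling, edgeR (4.0.16, quasi-likelihood) and DESeq2 (1.42.0) on recovered reads, a 2-fold threshold, a single fit of all groups, a block for the replicate number, leaving out each sample, TNP replicates 1 and 2 averaged, and the mean log2 value of the muscle markers as a covariate. Leaving out MGNP replicates 2 and 4 together was added after the data were seen. The fits were tested on simulated data.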

Additional observations from a re-analysis of the deposited data

Results flagged for a closer look

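A library was set apart when its gap to the nearest of the other libraries of its group, over the range of the group, passed Dixon's 95% critical value. Of 40 groups of 4 values tested, 7 were set apart in this way, and chance alone gives about 1 in 20. None of the explanations for them was tested. *Hey1* in MGN replicate 1, the single MGN gland labelled with Fsp-Cre, was 894 normalized counts, against 251.3 to 284 in the others. *Notch4* (1625, against 610.1 to 663) and *Dll4* (648, against 279 to 325) were set apart in MGN replicate 2, which also had the highest endothelial marker sum of the MGN glands, 39252 against 22065 to 25501. *Dll4* was 641 in MGNP replicate 1, against 301 to 347, and that library had the highest endothelial sum of the MGNP glands, 35059 against 19101 to 22888. *Hes1* in MGN replicate 3 was 515, against 358 to 367. *Jag2* in TN replicate 3 was 157, against 65.3 to 78.4, and the basal marker sum there was 5748, against 1611 to 2761 in the other TN tumors. *Notch3* in MGNP replicate 4 was 1494, against 2826 to 3003.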

How the results depend on the processing

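The calls of *Hey1*, *Dll1*, *Hes1*, *Jag1* and *Jag2* between tumor and gland held under every alternative run. Of the results of single genes under the alternatives, 1620 kept direction and call, 58 lost the call, 9 gained it and 93 changed direction. Those 93 belong to 23 results, 0 of them called, with an absolute log2 fold change of at most 0.43. The cause was not tested for any change below.

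The number of genes called higher in MGN against MGWT was 1 with DESeq2 and with the replicate block, and 0 to 1 when 1 sample was left out. In MGNP against MGWT it was 0 with a 2-fold threshold, with a single fit and with the muscle covariate, which also left 3 called lower. The number called lower in TNP against MGNP was 2 with a 2-fold threshold. Without 1 sample, the number lower in TN against MGN was 2 to 4 (4 without TN replicate 3), and the number higher in TN against MGWT and in TNP against MGWT was 1 to 2, *Dll1* being lost. In TNP against MGWT it was 1 with the replicate block. Correlations between same-numbered samples ranged from -0.25 to 0.33. With so few samples per group, they cannot show whether the replicate numbers pair the samples. The block left 0 genes called in MGNP against MGN and TNP against TN.

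With edgeR, DESeq2 and the muscle covariate, *Notch4* in MGNP against MGN was -0.053, -0.052 and -0.16. With edgeR and DESeq2 it was -0.046 and -0.057 in TNP against TN and 0.11 and 0.075 in TN against MGWT. In TNP against MGWT it was 0.048 with TMM, 0.058 with edgeR, 0.027 with DESeq2 and 0.074 with the replicate block. With the muscle covariate, MGNP against MGN gave 0.22 for *Notch1*, 0.015 for *Notch2* and -0.048 for *Dll4*, *Notch2* in MGNP against MGWT was 0.40, and the interaction was 0.19 for *Jag1* and 0.24 for *Jag2*. Without MGNP replicates 2 and 4, *Dll4* in MGNP against MGWT was 0.011, *Notch1* in TNP against MGNP was -0.22, MGNP against MGN gave 0.23 for *Notch1*, 0.00086 for *Notch2* and 0.12 for *Notch3*, and the interaction was -0.14 for *Notch4*, 0.21 for *Jag1* and -0.35 for *Dll1*. With TNP replicates 1 and 2 averaged, TNP against TN gave 0.0059 for *Notch1* and 0.013 for *Hes1*, and the interaction 0.077 for *Notch1* and -0.019 for *Notch4*. The *Notch1* interaction was 0.0070 with TMM.

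When 1 sample was left out, the interaction ranged from -0.26 to 0.42 for *Dll1*, -0.48 to 0.029 for *Dll4*, -0.43 to 0.25 for *Jag1*, -0.43 to 0.11 for *Jag2*, -0.22 to 0.24 for *Notch1* and -0.30 to 0.35 for *Notch4*. MGNP against MGN ranged from -0.11 to 0.24 for *Dll1*, -0.17 to 0.34 for *Dll4*, -0.32 to 0.29 for *Hey1*, -0.20 to 0.10 for *Notch1*, -0.23 to 0.15 for *Notch3* and -0.10 to 0.37 for *Notch4*. TNP against TN ranged from -0.24 to 0.44 for *Dll1*, -0.19 to 0.075 for *Hes1*, -0.29 to 0.16 for *Notch1* and -0.14 to 0.38 for *Notch4*. *Notch1* ranged from -0.16 to 0.24 in TN against MGN and -0.12 to 0.20 in TNP against MGNP, and *Notch4* from -0.38 to 0.13 in TN against MGWT and -0.090 to 0.074 in TNP against MGWT.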
